A study of Mus musculus with 24 samples.

Results

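The nuclear-encoded subunits of the respiratory chain were followed through 2 experiments on mouse kidney by bulk RNA sequencing. The members were every protein-coding gene whose symbol begins with Nduf, Uqcr, Atp5 or Cox4 to Cox8, together with Sdha, Sdhb, Sdhc and Sdhd, which gave 94 genes of 35460 in the annotation (21743 of them protein-coding). Of these, 82 encode subunits, 8 are Ndufaf assembly factors of complex I, 3 are related proteins (Atp5s, Cox7a2l and Ndufa4l2) and 1 is a second gene model under the symbol Atp5o. By complex, 44 belong to complex I, 4 to complex II, 8 to complex III, 20 to complex IV and 18 to complex V. The first experiment held 6 mice labelled ENPP1 knockout on an adenine diet, 6 wild-type mice on the same diet and 4 mice on chow. The second held 4 mice given a monoclonal antibody to human ENPP1 and 4 given control IgG, all on the adenine diet and injected intraperitoneally at 50 mg/kg, 2 times a week. The diet lasted 14 days in both. The knockout mice carried floxed Enpp1 (ENPP1 fl/fl) and the transgene CAG-ERCre, a tamoxifen-inducible Cre under the ubiquitous CAG promoter, and received tamoxifen. The wild-type mice were CAG-ERCre negative, so Cre and the genotype label cannot be told apart, and whether they or the chow mice received tamoxifen is not given. The genotype of the chow mice, and the strain, sex and age of all mice, are not given, nor is it given whether the antibody mice carried human ENPP1. Each library is taken as 1 mouse, as far as the sample titles tell, and p-values measure the spread between these libraries.

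Adenine in the diet is oxidised to a poorly soluble product that precipitates in the kidney tubule and injures it. Proximal tubule cells reabsorb most of the filtered salt and solutes and are rich in mitochondria. In the inner mitochondrial membrane, complexes I and II pass electrons from NADH and succinate to coenzyme Q, complex III passes them to cytochrome c, complex IV reduces oxygen, and complex V (ATP synthase) uses the proton gradient to make ATP. Complexes I, III, IV and V combine nuclear-encoded subunits with subunits encoded in mitochondrial DNA (mtDNA), while complex II is wholly nuclear-encoded.

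The promoters of the members were searched for the binding motifs of 4 families of transcription factor with known targets among respiratory chain genes. Promoter windows of 300 bases, from 250 before to 50 after the start site, came from RefSeq on the build GRCm38.p6, and 76 members had a window there. The NRF1 motif, shown in capitals in the Uqcrc1 window, stood in 7 of the 76 members (9.21%), against 0.971% of all 32851 windows. The GABPA (ETS family) motif CCGGAAGT stood in 5 (6.58%, against 3.89% of all windows), the YY1 motif, shown in capitals in the Ndufs6 window, in 5 (6.58%, against 0.633%), and the estrogen-related receptor motif TCAAGGTCA in 2 (2.63%, against 0.423%). Both strands were searched, and 19 of the 76 members held any of the 4 motifs, with no member holding more than 1. A member was counted when any of its windows held the motif, and 5 members had more than 1 window. The share of all windows counts single windows, so the 2 percentages differ in unit. A match is a description of letters, not of binding. Windows of 5 members are shown because each of the first 4 holds a different motif, in capitals, and the fifth belongs to Atp5b, an ATP synthase subunit that holds none of them. They are Uqcrc1 (chr9:108936398-108936697, plus strand, NRF1), Sdhd (chr9:50603800-50604099, minus strand, the estrogen-related receptor motif on the opposite strand, read as TGACCTTGA), Ndufs6 (chr13:73328433-73328732, minus strand, YY1), Uqcr11 (chr10:80406772-80407071, minus strand, GABPA) and Atp5b (chr10:128083057-128083356, plus strand), each written 5′ to 3′ on the strand of the gene.
Uqcrc1: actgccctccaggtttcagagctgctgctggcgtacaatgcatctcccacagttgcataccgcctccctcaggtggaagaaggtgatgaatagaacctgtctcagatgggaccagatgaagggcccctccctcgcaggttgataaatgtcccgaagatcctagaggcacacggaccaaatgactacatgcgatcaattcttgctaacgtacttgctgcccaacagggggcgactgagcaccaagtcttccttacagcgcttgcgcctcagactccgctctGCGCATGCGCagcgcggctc
Sdhd: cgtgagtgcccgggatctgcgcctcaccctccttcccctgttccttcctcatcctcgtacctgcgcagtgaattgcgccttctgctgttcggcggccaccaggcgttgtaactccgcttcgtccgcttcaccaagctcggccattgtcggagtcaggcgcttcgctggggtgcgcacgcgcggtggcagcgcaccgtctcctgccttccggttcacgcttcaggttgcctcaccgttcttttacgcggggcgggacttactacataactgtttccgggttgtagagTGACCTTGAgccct
Ndufs6: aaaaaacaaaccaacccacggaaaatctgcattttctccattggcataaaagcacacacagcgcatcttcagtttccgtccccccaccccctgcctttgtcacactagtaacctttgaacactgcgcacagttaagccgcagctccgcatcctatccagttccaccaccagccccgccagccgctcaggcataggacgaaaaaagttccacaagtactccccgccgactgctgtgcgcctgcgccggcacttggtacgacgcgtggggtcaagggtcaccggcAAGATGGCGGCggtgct
Uqcr11: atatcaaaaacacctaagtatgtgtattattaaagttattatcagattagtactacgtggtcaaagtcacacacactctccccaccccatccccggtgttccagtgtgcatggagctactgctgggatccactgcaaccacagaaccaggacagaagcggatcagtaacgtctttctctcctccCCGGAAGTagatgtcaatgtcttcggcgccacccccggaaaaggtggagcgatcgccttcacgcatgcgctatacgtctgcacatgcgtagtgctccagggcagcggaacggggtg
Atp5b: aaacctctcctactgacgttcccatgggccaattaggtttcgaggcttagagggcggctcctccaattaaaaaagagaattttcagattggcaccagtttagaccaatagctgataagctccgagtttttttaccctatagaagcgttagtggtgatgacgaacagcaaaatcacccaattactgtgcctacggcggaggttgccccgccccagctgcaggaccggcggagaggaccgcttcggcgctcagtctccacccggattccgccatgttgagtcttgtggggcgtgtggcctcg

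Library totals were 21164187 to 28350038 estimated reads in the knockout experiment and 44080791 to 50813749 in the antibody experiment. After the filter on low counts, 91 of the 94 members were tested in the knockout experiment (not Cox7b2, Cox8c and the second Atp5o model) and 88 in the antibody experiment (also not Cox4i2, Cox6a2 and Cox8b). Reads shared between near-identical copies, such as processed pseudogenes of a subunit, were divided by the authors' quantification, so members with such copies are uncertain to that extent. Levels are given in CPM (read counts scaled to a common library size) after TMM scaling, and changes as log2 fold changes of edgeR's quasi-likelihood test, called at a Benjamini-Hochberg adjusted p below 0.05 over all genes tested. The targeted gene did not bear out the label: Enpp1 averaged 22.7 ± 1.19 CPM in the 6 libraries labelled knockout and 22.0 ± 1.52 CPM in the 6 wild-type libraries on adenine (log2 change 0.048, 95% interval -0.060 to 0.16, edgeR adjusted p = 0.465). Which exons were floxed is not given, and reads from exons outside the deleted part would still count, so every direction drawn between these groups rests on the label alone. In the antibody experiment Enpp1 was 9.51, 2.62, 3.26 and 17.4 CPM in the antibody libraries and averaged 8.17 ± 0.752 CPM in the IgG libraries, with no call (edgeR adjusted p = 0.997).

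The adenine diet in wild-type mice against chow asks how the injury model itself moves the respiratory chain. Nuclear-encoded subunits of all 5 complexes were lower on adenine, with a median log2 change over the members of -1.95 (median 3.85-fold lower). Of 91 members tested, 90 fell and 1 rose (Cox6b2), where 40.9% of all 16965 genes tested were called lower and 44.0% higher (84.9% in either direction), and 85 members changed at least 2-fold. In 89 of the 91, no wild-type adenine library overlapped a chow library, which held for 75.2% of all genes tested. The libraries labelled knockout, set against the same chow libraries, gave 89 members lower and 1 higher, with a median log2 change of -1.42, where 39.9% of all genes were called lower and 40.2% higher (80.1% in either direction), and 89 members did not overlap (69.7% of all genes). Of genes averaging 20 CPM or more, 56.8% were called lower in wild type on adenine and 58.3% in the libraries labelled knockout, against all 78 and all 80 members at that level. These 2 comparisons share the chow libraries and are set side by side only. Upper-quartile scaling moves the median of all genes by 0.23 (wild type) and 0.16 (labelled knockout) on the log2 scale, and the members lay -2.02 and -1.45 from the median of all genes under either scaling. The size of the fall depended on the scale. By share of reads the members stood at 0.910% ± 0.0313 in wild-type libraries on adenine and 2.56% ± 0.218 in chow. In TPM (scaled to transcript length) they summed to 20700 ± 1406 and 46874 ± 3659. Some members called lower did not fall in TPM. Atp5g2 stood at 11.2 ± 2.42 in wild type on adenine and 8.65 ± 1.45 in chow, and Ndufa4l2 at 3.59 ± 0.811 and 3.01 ± 0.593. Atp5s stood at 18.3 ± 2.74 in wild type on adenine and 10.4 ± 0.972 in chow, and Ndufaf7 at 31.2 ± 4.72 and 25.1 ± 1.56. For these members the direction depended on the scale.

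Libraries labelled knockout against wild type, both on adenine, ask whether the label goes with a different state of the chain. Members were higher in the libraries labelled knockout, by a median log2 change of 0.55 (1.46-fold). Of 91 tested, 85 rose and 0 fell by edgeR (0 also at an unadjusted p below 0.05, by DESeq2 and by limma voom), where 25.1% of all genes were called higher and 21.3% lower (46.4% in either direction), and 78 members did not overlap between the groups (24.7% of all genes). The 6 not called were the assembly factors Ndufaf2 and Ndufaf7, Atp5s, the c-ring gene Atp5g2 and the tissue isoforms Cox4i2 and Cox6b2. The counts of all genes depended on the scaling, with 4260 higher and 3613 lower under TMM, against 3486 and 5063 under upper-quartile scaling, while the members stood 0.57 above the median of all genes under both. Among the better expressed genes (20 CPM or more on average over both groups), 33.7% were called higher and 25.6% lower (median 0.016), against 76 of 77 members at that level higher and 0 lower (median 0.57). Leaving out each library in turn gave 84 to 86 members higher.

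The antibody against IgG, both on adenine, asks the same of the treatment. The response was uneven: 37 of 88 members tested rose, 2 fell (Cox6b2 and Ndufa4l2) and 49 passed in neither direction, with a median log2 change of 0.20. Of all 16410 genes tested, 27.2% were called higher and 28.0% lower (55.3% in either direction), and 30 members did not overlap between the groups against 50.6% of all genes. Among the 6879 genes that averaged 20 CPM or more, 47.2% were called higher and 17.3% lower with a median of 0.16, and of the 78 members at that level 35 (44.9%) were called higher and 0 lower with a median of 0.21. The share of members called higher is therefore near the background of genes at that level, and is no result about the members as a whole. The members that rose were the 4 succinate dehydrogenase subunits, 17 subunits of complex I (6 core and 11 supernumerary), 3 of complex III, 1 of complex IV and 7 of complex V, with 4 assembly factors and Cox7a2l. Upper-quartile scaling, which moves the median of all genes by -0.16, gave 24 members higher and 7 lower, and all genes 2988 higher and 6621 lower against 4469 and 4603 under TMM. The members stood 0.24 above the median of all genes under both, and members of at least 20 CPM 0.048 above the median of genes at that level. The count of members higher was 58 without IgG replicate 1 and 26 without IgG replicate 4.

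**Figure D1:**
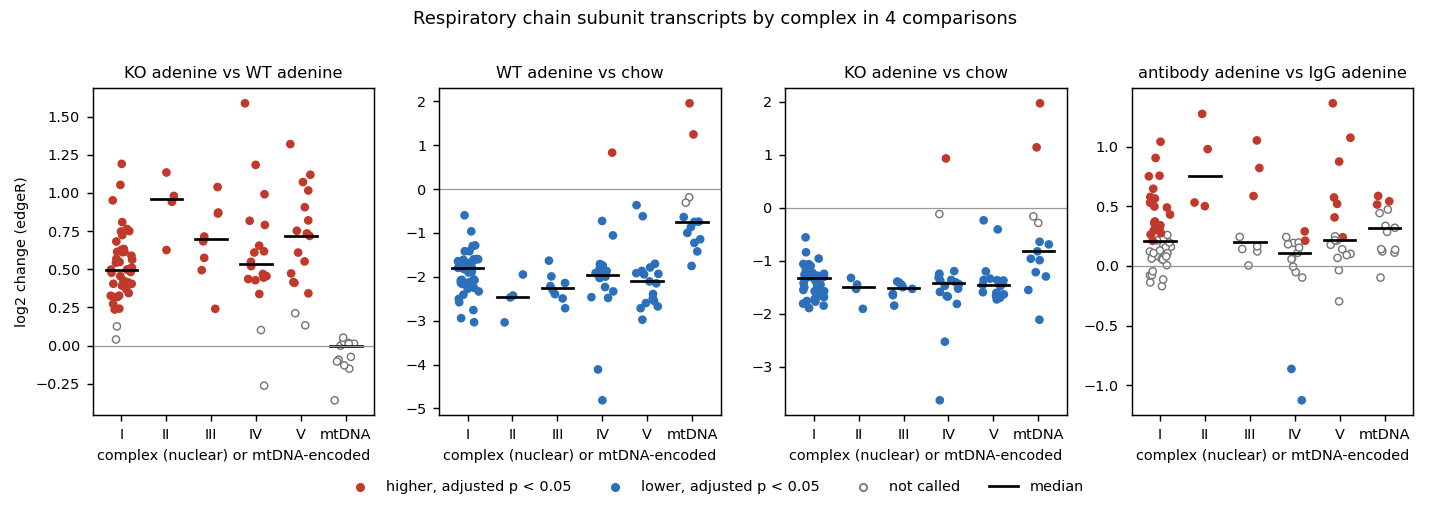
Log2 change of every tested member of complexes I to V and of the mtDNA-encoded subunits in 4 comparisons (1 panel each). Each point is a gene, red where called higher, blue where called lower and open where not called, and the bar is the median. Nuclear-encoded complexes lie below 0 on adenine against chow (medians -1.80 to -2.45 in wild type), above 0 in libraries labelled knockout against wild type, and have medians above 0 under the antibody with single members on either side.

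In every library labelled knockout the median level of each nuclear complex, relative to the chow mean, lay above that of every wild-type library on adenine. For complex I this level was -1.35 ± 0.11 in the libraries labelled knockout and -1.81 ± 0.055 in wild-type libraries on adenine (log2 units, SD, n = 6 each), and for complex II -1.50 ± 0.27 in the libraries labelled knockout and -2.44 ± 0.11 in wild-type libraries on adenine. For complex I the ranges were -1.52 to -1.23 in the libraries labelled knockout and -1.87 to -1.74 in wild-type libraries on adenine. Relative to the IgG mean, complex II ran from 0.64 to 0.91 in the antibody libraries and from -0.17 to 0.16 in the IgG libraries, without overlap. In complexes I, III, IV and V the antibody and IgG libraries overlapped, and IgG replicate 1, at 0.22 to 0.23 above the IgG mean, was the highest IgG library in each.

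**Figure D2:**
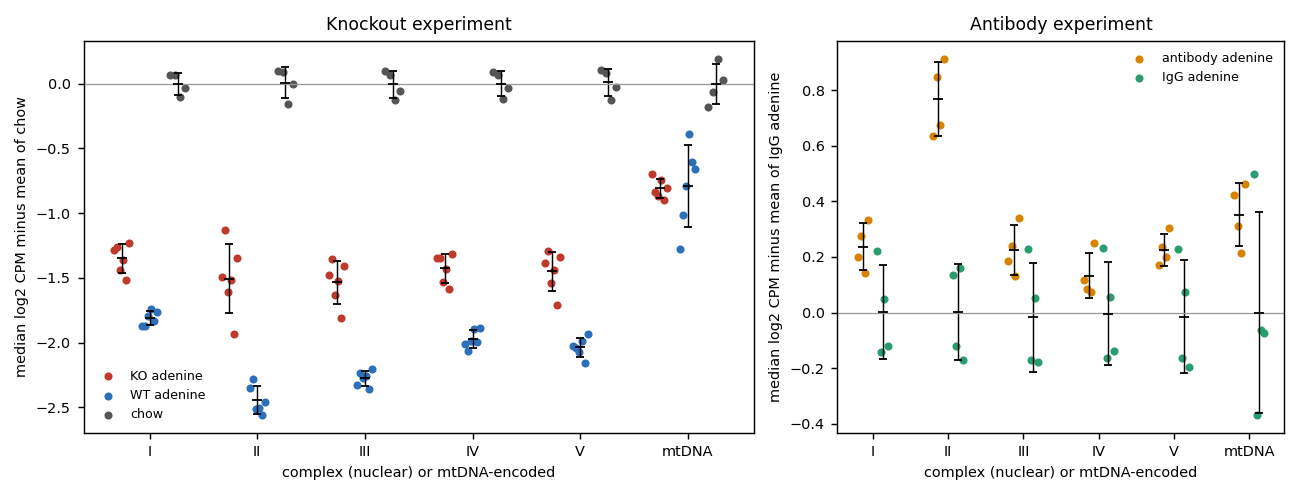
Median log2 CPM of the members of each complex in each library, minus the mean of the chow libraries (left) or of the IgG libraries (right). Points are libraries and bars are the mean ± SD of a group (n = 6, 6 and 4 at left, 4 and 4 at right). The libraries labelled knockout lie between the wild-type libraries on adenine and chow in all 5 nuclear complexes, and antibody and IgG libraries separate in complex II.

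Markers of proximal tubule moved in the direction of the members, and those of several other cell types did not. The defining markers of proximal tubule were present in all libraries. Of all genes tested, 25.1% were called higher and 21.3% lower with the label, and 40.9% lower on adenine in wild type. Under the antibody 27.2% were called higher and 28.0% lower (47.2% and 17.3% of genes of at least 20 CPM). The summed level of 12 proximal tubule markers was 7934 CPM in the libraries labelled knockout (range 5207 to 10595), 3165 CPM in wild-type libraries on adenine (2387 to 4292) and 15445 CPM in chow (15297 to 15539.8), with 11 of 12 called higher with the label, 12 of 12 lower on adenine in wild type and none at 0 reads in any group. It was 8952 CPM with the antibody (7737 to 10323) and 3132 CPM with IgG (2473 to 3688), with 12 of 12 called higher. The summed level of 10 injured tubule markers ran the other way, at 14788 CPM in the libraries labelled knockout (range 12764 to 17398), 18517 CPM in wild-type libraries on adenine (14248 to 22136) and 1939 CPM in chow (1836 to 2037), with 7 of 10 called lower with the label. It was 26679 CPM with the antibody (20768 to 34006) and 43512 CPM with IgG (42036 to 45163). Macrophage markers summed to 459.7 CPM in the libraries labelled knockout, 475 CPM in wild-type libraries on adenine and 191 CPM in chow, and to 198 CPM with the antibody and 479.8 CPM with IgG. Red cell genes summed to 357 CPM in the libraries labelled knockout, 22.9 CPM in wild-type libraries on adenine and 1192 CPM in chow. In addition, 6 of 6 podocyte and 8 of 8 endothelial markers were also called higher with the label, as were 7 of 10 collecting duct and 6 of 9 loop of Henle and distal tubule markers. Of immune markers, 1 of 10 macrophage and 1 of 6 tested neutrophil markers were called lower with the label and 0 higher, and 0 of 9 lymphocyte markers were called. Under the antibody, 7 of 10 collecting duct and 7 of 9 loop of Henle and distal tubule markers were called higher. Endothelial and podocyte markers did not follow there, with 0 of 8 endothelial markers higher and 3 lower, and 2 of 6 podocyte markers higher and 2 lower. All 10 macrophage markers, 8 of 9 fibroblast markers (median log2 change -1.18) and 4 of 5 tested neutrophil markers (-1.17) were called lower under the antibody. The part of these markers in the members' changes was not tested, and in bulk tissue fewer cells of a type and less RNA per cell cannot be told apart. By library, the members' share of reads was highest and lowest where the proximal tubule sum was highest and lowest among the libraries labelled knockout (1.47% at 10595 CPM and 1.22% at 5207 CPM) and among the antibody libraries (1.40% at 10323 CPM and 1.29% at 7737 CPM). Within the wild-type libraries on adenine it ran the other way, at 0.871% in the library with the highest sum (4292 CPM) and 0.947% in that with the lowest (2387 CPM). In chow the highest share (2.78%) was also in the library with the lowest sum (15297 CPM). With IgG the highest share (1.23%) was at the highest sum (3688 CPM). The lowest IgG share (1.08%) was at 2869 CPM and not at the lowest sum (2473 CPM).

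**Figure D3:**
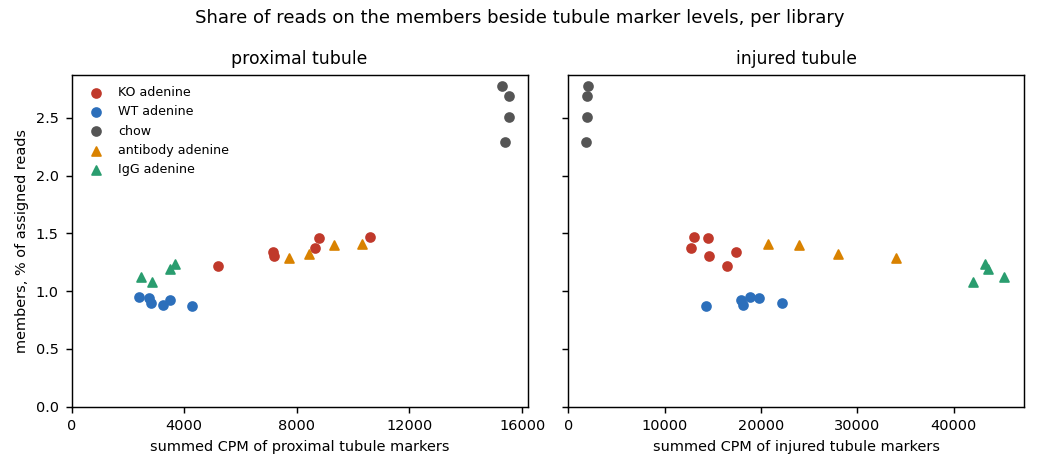
Percent of a library's reads on the members (vertical axis) against the summed CPM of proximal tubule markers and of injured tubule markers (horizontal axes), 1 point per library. Members took 1.22 to 1.47% of reads in the libraries labelled knockout, 0.871 to 0.947% in wild-type libraries on adenine and 2.29 to 2.78% in chow, groups that do not overlap on this axis.

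Complex I (NADH dehydrogenase) has a catalytic core, whose nuclear-encoded members carry the flavin and the iron-sulfur clusters, and many supernumerary subunits around it. On adenine all 44 tested members of the complex fell in wild-type mice (median log2 change -1.80), with -1.81 at the median for the 7 nuclear core subunits and -1.90 for the 29 supernumerary ones. In the libraries labelled knockout against wild type 42 rose (median 0.50), at 0.50 for the core and 0.54 for the supernumerary subunits, and all 36 of them passed the test. Under the antibody, 6 of 7 core subunits rose (median 0.34) and 11 of 29 supernumerary ones (median 0.16). Over the complex 21 of 44 members were called higher there. That count is near the 47.2% of genes of at least 20 CPM called higher, and is no result about the complex. The difference between core and supernumerary subunits was not tested.

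The largest change of the complex with the label, and on adenine in wild type, was in Ndufb9, a supernumerary subunit of the membrane arm. Ndufb9 ran from 110.3 to 157 CPM (median 134) in the libraries labelled knockout, against 55.9 to 61.8 CPM (median 59.9) in wild-type libraries on adenine. In chow, Ndufb9 stood at 527, 519, 421 and 471 CPM. The 3 groups did not overlap, and chow stood highest. Ndufb9 rose by 1.19 ± 0.077 (log2, SE) in the libraries labelled knockout against wild type (edgeR adjusted p = 8.48e-09), and in wild-type mice on adenine it was 8.19-fold below chow (log2 change -3.03 ± 0.085, edgeR adjusted p = 7.29e-16). Under the antibody it measured 124, 138, 125 and 152 CPM in the antibody libraries, against 107, 73.2, 93.7 and 70.3 CPM in the IgG libraries, again without overlap (log2 change 0.65 ± 0.13, edgeR adjusted p = 0.00177). Ndufs6, an accessory subunit of the NADH-oxidising module, averaged 54.0 ± 6.03 CPM in the libraries labelled knockout, 26.03 ± 2.79 in wild-type libraries on adenine and 199.9 ± 17.6 in chow (SD, n = 6, 6 and 4). It rose by 1.05 with the label. Its antibody and IgG libraries overlapped (68.1, 74.5, 67.8 and 78.0 CPM in the antibody libraries, against 73.8, 47.4, 57.0 and 45.0 CPM in the IgG libraries).

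Smaller changes with the label were seen in Ndufb7 and Ndufa5, accessory subunits of the membrane arm and the matrix arm. Ndufa5 ran from 82.7 to 103 CPM (median 91.5) in the libraries labelled knockout and from 61.7 to 91.8 CPM (median 79.7) in wild-type libraries on adenine. These groups overlapped, and the call (0.24, edgeR adjusted p = 0.0274) was lost under upper-quartile scaling and when knockout replicate 1 or 6 or wild-type replicate 1 or 2 was left out. Ndufb7 rose by 0.32 ± 0.058 (edgeR adjusted p = 0.000216). The log2 change of Ndufb7 under the antibody was -0.045 (95% interval -0.25 to 0.16, edgeR adjusted p = 0.7), which turned positive once the length trend was removed or IgG replicate 1 left out. Ndufab1, the mitochondrial acyl carrier protein, fell least among the subunits on adenine in wild-type mice (-1.42), and Ndufv3, a small accessory subunit, least in the libraries labelled knockout against chow (-1.06).

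Under the antibody the largest changes of the complex were in core subunits. Ndufs1, the largest iron-sulfur subunit, measured 221, 241, 212 and 268 CPM in the antibody libraries, against 113, 106, 124 and 115 CPM in the IgG libraries. Every antibody library was above every IgG library, and Ndufs1 rose by 1.04 ± 0.087 (edgeR adjusted p = 4.35e-05). In the knockout experiment Ndufs1 ran from 81.0 to 116 CPM (median 95.3) in the libraries labelled knockout, against 62.9 to 73.6 CPM (median 67.9) in wild-type libraries on adenine. In chow, Ndufs1 stood at 223, 209, 187 and 204 CPM, and the log2 changes against chow were -1.09 in the libraries labelled knockout and -1.59 in wild type. Ndufv1, which binds NADH and the flavin, averaged 164 ± 12.3 CPM with the antibody and 87.3 ± 12.2 CPM with IgG (SD, n = 4 each, log2 change 0.91, edgeR adjusted p = 7.87e-05). The small accessory subunit Ndufa1 showed no call, at 64.0, 67.9, 65.9 and 68.0 CPM in the antibody libraries, against 77.2, 55.7, 66.7 and 56.8 CPM in the IgG libraries, and the sign of its log2 change (0.052) turned under upper-quartile scaling.

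Complex II (succinate dehydrogenase) is also the enzyme of the citric acid cycle that oxidises succinate, with a flavoprotein (Sdha), an iron-sulfur protein (Sdhb) and 2 membrane anchors (Sdhc and Sdhd). It was the complex with the widest response in wild type on adenine, with the label and under the antibody by the median: its 4 subunits fell in wild-type mice on adenine (median log2 change -2.45), rose with the knockout label (median 0.96) and rose under the antibody (median 0.76), in no case with overlapping groups. Sdha ran from 182 to 330.1 CPM (median 253) in the libraries labelled knockout, against 119.7 to 146 CPM (median 126) in wild-type libraries on adenine. In chow, Sdha stood at 737, 751, 609.6 and 690.0 CPM. With the label Sdha rose by 0.98 ± 0.10 (edgeR adjusted p = 7.38e-07), and on adenine in wild type it changed by -2.43 ± 0.12 (edgeR adjusted p = 3.26e-13). Under the antibody Sdha measured 508, 643, 565 and 682 CPM in the antibody libraries, against 261, 229, 284 and 217 CPM in the IgG libraries. The lowest antibody library was well above the highest IgG library, and the rise was 1.28 ± 0.12 (edgeR adjusted p = 4.35e-05), or 2.42-fold.

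Sdhb ran from 130.2 to 200.2 CPM (median 166) in the libraries labelled knockout, against 69.4 to 83.4 CPM (median 74.9) in wild-type libraries on adenine. In chow, Sdhb stood at 671, 628, 577 and 629.9 CPM. Chow was far above both adenine groups, and Sdhb fell to levels 8.21-fold below chow in wild type (-3.04 ± 0.093, edgeR adjusted p = 1.61e-15) and changed by -1.90 in the libraries labelled knockout against chow. It rose by 1.13 ± 0.083 with the label (edgeR adjusted p = 1.88e-08). With the antibody given, Sdhb measured 161, 203, 177 and 214 CPM in the antibody libraries, against 114, 79.2, 106 and 82.9 CPM in the IgG libraries, a rise of 0.98 ± 0.13 (edgeR adjusted p = 0.00018). The anchors moved less under the antibody. Sdhc measured 232, 261, 235 and 257 CPM in the antibody libraries, against 197, 158, 184 and 158 CPM in the IgG libraries (0.50, edgeR adjusted p = 0.000835), and Sdhd 204, 208, 196 and 226 CPM in the antibody libraries, against 147, 141, 160.1 and 129 CPM in the IgG libraries (0.53, edgeR adjusted p = 0.000346). In the knockout experiment Sdhc ran from 169 to 228 CPM (median 205) in the libraries labelled knockout, against 119 to 136 CPM (median 132) in wild-type libraries on adenine. In chow, Sdhc stood at 519, 526, 457 and 503 CPM. For the other anchor, Sdhd ran from 75.3 to 131 CPM (median 98.2) in the libraries labelled knockout, against 48.1 to 57.8 CPM (median 51.0) in wild-type libraries on adenine. In chow, Sdhd stood at 328, 315, 232 and 286 CPM. Both rose with the label, Sdhc by 0.63 (edgeR adjusted p = 7.37e-07) and Sdhd by 0.94 (edgeR adjusted p = 1.50e-06), and both fell on adenine in wild type, by 1.95 and 2.47.

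Complex III (cytochrome bc1 complex) is built on the core proteins Uqcrc1 and Uqcrc2 and the Rieske iron-sulfur protein Uqcrfs1, with 5 small nuclear-encoded subunits among the members. All 8 fell against chow (median log2 change -1.51 in the libraries labelled knockout and -2.26 in wild type on adenine), and all 8 rose with the label (0.70). Under the antibody the core and Rieske proteins rose (3 of 3, median 0.82) and none of the 5 small subunits passed the test (median 0.14). Among genes of at least 20 CPM, 47.2% were called higher there. At an unadjusted p below 0.05, 0 of the 5 passed, and without IgG replicate 1 the complex had 7 members higher. Uqcrc1 ran from 166 to 243 CPM (median 203) in the libraries labelled knockout, against 93.9 to 104 CPM (median 99.4) in wild-type libraries on adenine. In chow, Uqcrc1 stood at 594, 585, 502 and 554 CPM. The 3 groups were apart, with a rise of 1.04 ± 0.074 with the label (edgeR adjusted p = 1.44e-08). In the antibody experiment Uqcrc1 measured 162, 201, 177 and 198 CPM in the antibody libraries, against 104, 75.6, 98.4 and 76.9 CPM in the IgG libraries, a rise of 1.05 ± 0.12 (edgeR adjusted p = 7.88e-05). Uqcrc2 averaged 348 ± 30.1 CPM with the antibody and 197 ± 17.1 CPM with IgG (0.82, edgeR adjusted p = 7.09e-05), and Uqcrfs1 rose by 0.59 (edgeR adjusted p = 0.000361).

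Among the small subunits, Uqcr11 had the largest fall of the complex on adenine in wild type (-2.71 ± 0.076) and rose by 0.87 with the label. Uqcrb, which contacts the coenzyme Q site, rose least with the label (0.24 ± 0.074, edgeR adjusted p = 0.0122), and its groups overlapped, at 104 to 129 CPM (median 119.8) in the libraries labelled knockout and 84.6 to 111 CPM (median 105) in wild-type libraries on adenine. Uqcrq rose by 0.49 with the label (edgeR adjusted p = 0.000143). Under the antibody it measured 81.4, 82.6, 73.7 and 81.9 CPM in the antibody libraries, against 101, 68.8, 81.0 and 68.3 CPM in the IgG libraries, with the IgG libraries on both sides of the antibody libraries. Its log2 change was 0.0039 with a 95% interval of -0.25 to 0.26, and its sign turned under upper-quartile scaling.

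Complex IV (cytochrome c oxidase) has 11 nuclear-encoded subunits here that are used in most tissues and several tissue isoforms. The 11 common subunits fell on adenine in wild type (median log2 change -1.99) and all rose with the label (median 0.47), each without overlap. Under the antibody 1 of the 11 passed the test, Ndufa4 (median of the 11 0.15), where 47.2% of genes of at least 20 CPM were called higher. At an unadjusted p below 0.05, 3 of the 11 passed. Over all 15 tested members of the complex the median under the antibody was 0.11 with TMM and -0.045 with upper-quartile scaling, and the count of members higher was 7 without IgG replicate 1 and 0 without IgG replicate 4 or antibody replicate 2 or 4.

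Cox5a is a subunit on the matrix side of the complex. Cox5a ran from 104 to 151 CPM (median 134) in the libraries labelled knockout, against 56.6 to 75.7 CPM (median 64.0) in wild-type libraries on adenine. In chow, Cox5a stood at 338, 335, 262 and 296 CPM. It rose by 0.99 ± 0.093 with the label (edgeR adjusted p = 2.02e-07) with every labelled library above every wild-type one. In the antibody experiment Cox5a measured 183, 169.6, 158 and 182 CPM in the antibody libraries, against 172, 157, 169 and 143 CPM in the IgG libraries, which overlap (log2 change 0.11 ± 0.080, edgeR adjusted p = 0.265). Ndufa4, named for complex I and now placed in complex IV, rose by 0.79 with the label (edgeR adjusted p = 2.93e-07) and fell by 2.46 on adenine in wild type. Its call under the antibody (0.29, edgeR adjusted p = 0.0377) came with overlapping groups, 273, 281, 274 and 304 CPM in the antibody libraries, against 277, 199, 245 and 204 CPM in the IgG libraries, and was lost under upper-quartile scaling. Cox7a2, the widespread isoform of subunit VIIa, rose by 0.82 with the label and had the largest fall among the common subunits on adenine in wild type (-2.48). Cox6b1 ran from 199.7 to 252 CPM (median 238) in the libraries labelled knockout, against 166 to 192 CPM (median 185) in wild-type libraries on adenine. In chow, Cox6b1 stood at 617, 628, 552 and 580.0 CPM. Cox6b1, the widespread isoform of subunit VIb, rose least among the common subunits (0.34 ± 0.059, edgeR adjusted p = 0.00015) and was not called under the antibody (0.18, edgeR adjusted p = 0.122).

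Cox6b2, the isoform of subunit VIb known from testis, moved against most other members. Cox6b2 ran from 15.4 to 18.4 CPM (median 16.5) in the libraries labelled knockout, against 14.0 to 16.5 CPM (median 15.7) in wild-type libraries on adenine. In chow, Cox6b2 stood at 7.53, 8.49, 9.74 and 9.17 CPM. Both adenine groups lay wholly above chow, while they overlapped each other. Cox6b2 rose on adenine by 0.83 ± 0.076 in wild type (edgeR adjusted p = 4.80e-09) and by 0.93 ± 0.075 in the libraries labelled knockout (edgeR adjusted p = 1.29e-09), and it was not called with the label (0.10, edgeR adjusted p = 0.193). Under the antibody it measured 1.41, 1.72, 1.45 and 1.14 CPM in the antibody libraries, against 3.19, 2.44, 2.69 and 2.12 CPM in the IgG libraries, all below the lowest IgG library, and fell by 0.86 (SE 0.19, edgeR adjusted p = 0.00266). Per length, Cox6b2 made up 8.97% ± 0.726 of the summed TPM of Cox6b1 and Cox6b2 in the libraries labelled knockout, 10.05% ± 0.894 in wild-type libraries on adenine and 2.05% ± 0.416 in chow (SD, n = 6, 6 and 4). The share was 0.616% ± 0.0946 with the antibody and 1.36% ± 0.141 with IgG (n = 4 each). The testis marker list was at or near 0 in all groups (at most 0.111 summed CPM in any library). Of the Cox6b2 reads, 34.8% in the libraries labelled knockout and 38.8% in wild-type libraries on adenine lay on transcripts annotated with a retained intron, against 17.0% in chow.

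The isoforms known from striated muscle were low on adenine. Cox6a2 ran from 0.403 to 0.744 CPM (median 0.523) in the libraries labelled knockout, against 0.0750 to 0.290 CPM (median 0.183) in wild-type libraries on adenine and 2.73, 2.88, 4.50 and 2.59 CPM in chow. It rose with the label (1.59 ± 0.29, edgeR adjusted p = 0.000257). Cox8b ran from 0.527 to 0.744 CPM (median 0.643) in the libraries labelled knockout, against 0 to 0.704 CPM (median 0.224) in wild-type libraries on adenine and 8.63, 7.86, 8.36 and 6.59 CPM in chow. Both had chow libraries far above either adenine group, with log2 changes on adenine in wild type of -4.11 and -4.81. The summed level of 12 striated muscle markers was likewise higher in chow on average but not with the label, at 6.12 to 8.06 CPM in the libraries labelled knockout, 6.78 to 10.7 CPM in wild-type libraries on adenine and 10.6 to 39.1 CPM in chow. The highest chow value of both Cox6a2 and the marker sum was in replicate 3, while Cox8b was highest in chow replicate 1, where the marker sum was lowest. Their part in the result was not tested. Cox7a1 averaged 7.41 ± 1.04 CPM in the libraries labelled knockout, 5.17 ± 1.02 in wild-type libraries on adenine and 25.99 ± 2.48 in chow. As a share of the TPM of Cox7a1 and Cox7a2 it was 12.19% ± 0.2999, 14.5% ± 3.00 and 13.04% ± 0.269. Cox4i1, the widespread subunit IV, averaged 554 ± 37.3 CPM, 361 ± 13.1 CPM and 1467 ± 107 CPM in the same groups and rose by 0.62 with the label. Cox4i2, the isoform known from lung and induced by low oxygen, averaged 0.469 ± 0.112, 0.558 ± 0.187 and 1.17 ± 0.412 CPM and was not called (-0.26, edgeR adjusted p = 0.442). The widespread partners Cox6a1, Cox7b and Cox8a rose by 0.55, 0.47 and 0.44 with the label. They averaged 339 ± 28.6, 187 ± 14.6 and 251 ± 21.4 CPM in the libraries labelled knockout, against 232 ± 21.9, 135 ± 12.4 and 186 ± 12.8 CPM in wild-type libraries on adenine. Under the antibody Cox7a1 measured 2.27, 2.37, 3.28 and 3.38 CPM in the antibody libraries, against 3.83, 2.49, 2.44 and 2.62 CPM in the IgG libraries, which overlap, and was not called (-0.0062, edgeR adjusted p = 0.982). Cox7b2 and Cox8c, both known from testis, were listed at or near 0 and were not tested, nor were Cox4i2, Cox6a2 and Cox8b in the antibody experiment.

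Ndufa4l2, a relative of Ndufa4 known as a target of the hypoxia-inducible factor HIF-1, also fell under the antibody. It measured 0.371, 0.278, 0.258 and 0.207 CPM in the antibody libraries, against 0.663, 0.842, 0.632 and 0.305 CPM in the IgG libraries, and the groups overlapped in 1 IgG library. The log2 change was -1.13 ± 0.35 (edgeR adjusted p = 0.0172), but it rested on 46 reads in all antibody libraries and 130 in all IgG libraries, and the call was lost with an effective length offset and without antibody replicate 4 or IgG replicate 2. In the knockout experiment it rose with the label (0.61, edgeR adjusted p = 0.000903) and fell on adenine in wild type (-0.73, edgeR adjusted p = 0.000146). Cox7a2l, which helps join complexes III and IV into supercomplexes, rose by 0.65 with the label (edgeR adjusted p = 6.57e-05) and by 0.21 under the antibody (edgeR adjusted p = 0.0269).

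**Figure D4:**
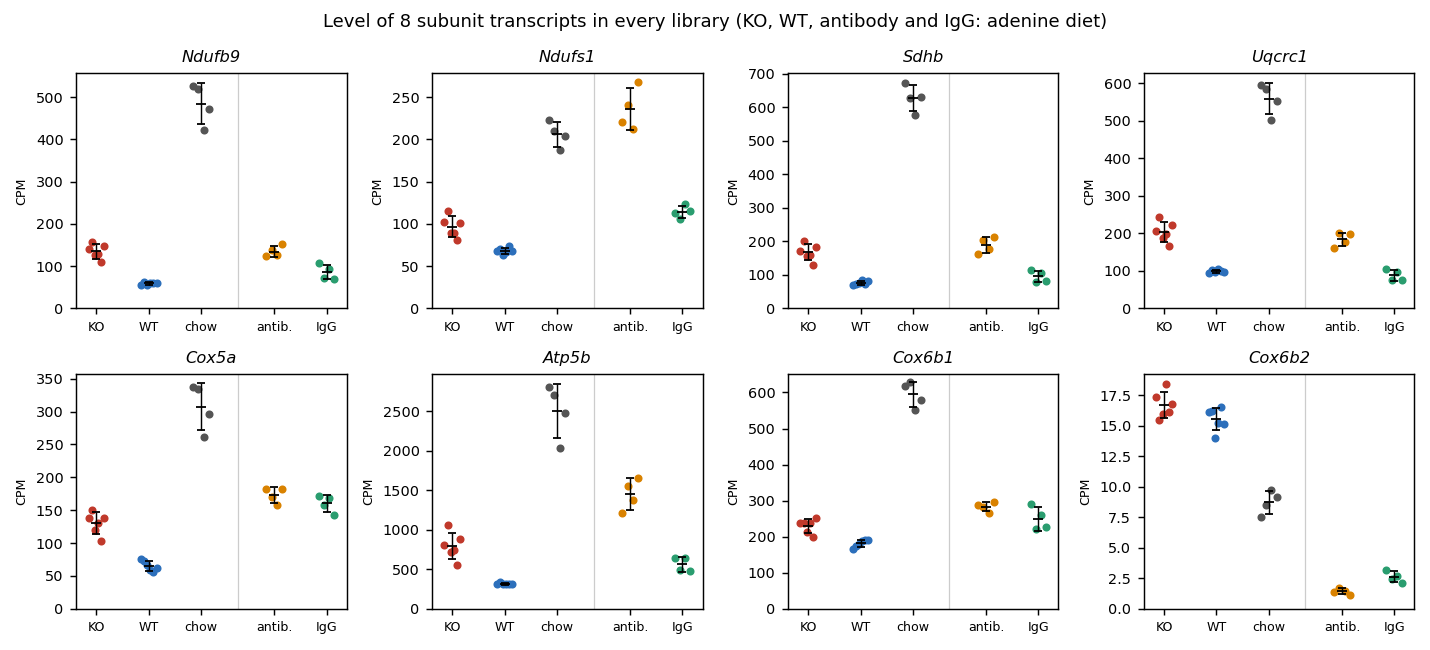
CPM in every library of Ndufb9, Ndufs1, Sdhb, Uqcrc1, Cox5a, Atp5b, Cox6b1 and Cox6b2, by group. Points are libraries. In 7 of the 8 genes chow is highest in the knockout experiment, and Cox6b2 is higher on adenine (7.53, 8.49, 9.74 and 9.17 CPM in chow).

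Complex V (ATP synthase) consists of the F1 head, where ATP is formed, and a membrane part with the c-ring, joined by a peripheral stalk. The 5 subunits of the F1 head had a median log2 change of 1.07 with the label and -2.67 on adenine in wild type. The membrane subunits stood at 0.54 and -2.02, and the peripheral stalk at 0.56 and -2.01. Under the antibody 4 of 5 F1 subunits rose (median 0.88), with 2 of 4 stalk subunits (0.31), 1 of 3 c-ring genes (0.18) and none of the 4 membrane subunits (0.079, with 1 at an unadjusted p below 0.05). The differences between these parts were not tested. Over the complex 7 of 17 tested members were called higher under the antibody. That count is near the 47.2% of genes of at least 20 CPM called higher, and is no result about the complex.

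Atp5b, the catalytic beta subunit, showed the largest rise among all subunits under the antibody. Atp5b ran from 557 to 1054 CPM (median 777) in the libraries labelled knockout, against 309 to 343 CPM (median 313) in wild-type libraries on adenine. In chow, Atp5b stood at 2809, 2707, 2035 and 2475 CPM. The 3 groups did not overlap; Atp5b rose by 1.32 ± 0.11 with the label (edgeR adjusted p = 9.26e-08) and was 7.87-fold below chow in wild type on adenine (-2.98 ± 0.13, edgeR adjusted p = 8.55e-14). Under the antibody it measured 1211, 1558, 1377 and 1661 CPM in the antibody libraries, against 645, 486, 645 and 479.5 CPM in the IgG libraries, a rise of 1.36 ± 0.14 (edgeR adjusted p = 5.79e-05), or 2.57-fold. Atp5a1, the alpha subunit, averaged 1251 ± 137 CPM with the antibody and 594 ± 85.8 CPM with IgG (1.08, edgeR adjusted p = 7.82e-05), and rose by 1.07 with the label. Atp5d, the delta subunit of the central stalk, rose by 1.12 with the label (edgeR adjusted p = 1.36e-08) and by 0.52 under the antibody (edgeR adjusted p = 0.00626). Atp5e, the epsilon subunit, fell by 2.71 on adenine in wild type and was not called under the antibody (0.14, edgeR adjusted p = 0.526).

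Of the 3 genes that encode the same mature c subunit, Atp5g2 was the lowest per length, at 8.65 ± 1.45 TPM in chow against 794 ± 48.3 TPM for Atp5g1 and 1190.1 ± 115 TPM for Atp5g3, and had the smallest log2 changes of the 3 in the knockout experiment. It ran from 4.05 to 6.09 CPM (median 5.25) in the libraries labelled knockout, against 3.98 to 5.33 CPM (median 4.10) in wild-type libraries on adenine and 7.58, 7.60, 7.12 and 5.02 CPM in chow. The groups overlapped, with no call for the label (0.21 ± 0.12, edgeR adjusted p = 0.171), a log2 change of -0.41 for the libraries labelled knockout against chow and a fall of 0.62 on adenine in wild type. The call against chow in the libraries labelled knockout (edgeR adjusted p = 0.0104) was lost under upper-quartile scaling and without chow replicate 1 or 2. Atp5j, of the peripheral stalk, rose least among the complex V members called with the label (0.34, edgeR adjusted p = 0.000113), and Atp5k, a membrane subunit, fell most in the libraries labelled knockout against chow (-1.73). Atp5mpl and Atp5j2, small membrane subunits, were not called under the antibody (log2 changes -0.036 and 0.067), and the sign of the first turned with the length trend removed and of the second under upper-quartile scaling.

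Levels of different genes were compared in TPM, which are scaled to transcript length. In chow the members summed to 13592 ± 1231 TPM for complex V, 13309 ± 902 for complex I, 13184 ± 984 for complex IV, 5693 ± 445 for complex III and 1096 ± 105 for complex II (SD, n = 4). The first 3 sums did not differ beyond their spread and that of complex II was lowest. The sums run over unequal numbers of members (18 in complex V, 44 in I, 20 in IV, 8 in III and 4 in II). They therefore do not rank the complexes by level per gene. The highest single member was Atp5b in the libraries labelled knockout (1311 ± 174 TPM), with the antibody (1147 ± 129.6 TPM) and in chow (2886 ± 359.9 TPM). It was Cox6c, a complex IV subunit, in wild-type libraries on adenine (899.9 ± 53.7 TPM) and with IgG (1233 ± 62.9 TPM). All members together summed to 29273 ± 1663 TPM in the libraries labelled knockout, 20700.3 ± 1406 TPM in wild-type libraries on adenine and 46874 ± 3659 TPM in chow. On the same scale they summed to 22253 ± 829.9 TPM with the antibody and 21621 ± 1328 TPM with IgG, where the ranges overlapped (21324 to 23326 and 20332 to 23194). Their share of reads, in contrast, did not overlap, at 1.29 to 1.40% with the antibody and 1.08 to 1.23% with IgG. Complex II did not overlap on either scale, at 732 ± 67.5 TPM with the antibody and 480.2 ± 53.5 TPM with IgG.

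Under the antibody the subunits with long transcripts had the larger changes. Over the 75 subunits with a mean of at least 5 CPM, Spearman's rho between the log2 change and the mean effective transcript length was 0.68 (Pearson's r 0.75 against log2 length), a description across genes that share the same 8 libraries and are not independent. Of 22 subunits of 600 bases or more, 20 rose (median 0.67), and of 53 shorter ones 12 rose (median 0.14). Over all genes tested rho was 0.022, with 145 higher and 388 lower of 1149 genes under 600 bases and 4324 higher and 4215 lower of 15261 longer ones. In the knockout experiment rho over the subunits was 0.34 for the label, -0.16 for adenine in wild type and 0.077 for the libraries labelled knockout against chow. Over all genes tested rho was -0.12, 0.15 and 0.16 in the same order. Of 1240 genes under 600 bases, 390 were higher and 167 lower with the label, and 393 higher and 618 lower on adenine in wild type. Of subunits that short, 53 of 54 were higher with the label and 54 of 55 lower on adenine in wild type. With the trend of level on length removed in each library, 73 members were called higher under the antibody with a median of 0.37. Removing it also moved all genes, from 4469 higher and 4603 lower to 5067 higher and 4184 lower. The members then stood 0.35 above the median of all genes, against 0.24 without this step. Catalytic and core subunits such as Ndufs1, Ndufv1, Sdha, Uqcrc1, Uqcrc2, Atp5a1 and Atp5b are among the long ones, so length and role cannot be told apart here.

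**Figure D5:**
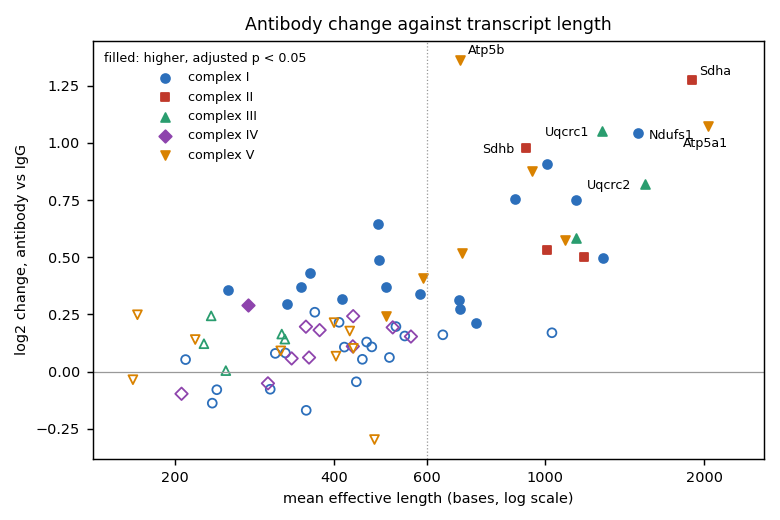
Log2 change with the antibody against IgG of the 75 subunits with at least 5 CPM, against their mean effective transcript length in bases (log axis). Filled points were called higher, and the dotted line marks 600 bases. The subunits right of the line had a median of 0.67 and those left of it had a median of 0.14.

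Assembly factors build the complexes without staying in them. All 8 Ndufaf genes of complex I fell on adenine in wild type (median log2 change -1.36), 6 of 8 rose with the label (median 0.30) and 4 of 8 under the antibody (0.19). Ndufaf4 and Ndufaf1 were among the 10 members with the lowest p under the antibody (0.58, edgeR adjusted p = 0.000141, and 0.53, edgeR adjusted p = 0.000157). Of 41 tested assembly factors outside the symbol rule, 27 rose and 2 fell with the label, 40 fell on adenine in wild type, and 20 rose and 1 fell under the antibody. Of all genes tested, 25.1% were called higher with the label, 40.9% lower on adenine in wild type and 27.2% higher under the antibody. Under the antibody 47.2% of genes of at least 20 CPM were called higher. The counts of both sets of assembly factors there are near that share and are no result about them. The largest changes with at least 5 CPM were in Coa6, which helps deliver copper to complex IV, with 0.63 for the label and -2.08 on adenine in wild type, and in Taco1, a translational activator of mitochondrial Cox1 mRNA, with 1.13 under the antibody (edgeR adjusted p = 7.09e-05). Of 3 further subunit or inhibitor genes whose symbols the rule misses (Cyc1, Usmg5 and Atpif1, chosen after the data were seen), all rose with the label and fell on adenine in wild type, and Cyc1, cytochrome c1 of complex III, alone rose under the antibody (0.79, edgeR adjusted p = 0.000358).

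The 13 subunits encoded in mtDNA did not follow the nuclear ones with the label. None was called in the libraries labelled knockout against wild type (median log2 change -0.0011, 0 at an unadjusted p below 0.05 and 0 by DESeq2 and by limma voom). Their median level relative to chow was -0.81 ± 0.075 in the libraries labelled knockout and -0.79 ± 0.32 in wild-type libraries on adenine, with overlapping ranges. On adenine in wild type 9 fell and 2 rose (median -0.75), and the same counts held in the libraries labelled knockout against chow (median -0.82). The first that rose was mt-Nd5, at 17484 ± 4204 CPM in wild-type libraries on adenine and 7368 ± 2058 CPM in chow (1.25 ± 0.18, edgeR adjusted p = 3.63e-06). The other was mt-Nd6, which is encoded on the opposite strand from the rest, at 705 ± 352 CPM in wild-type libraries on adenine and 182 ± 17.0 CPM in chow (1.96 ± 0.30, edgeR adjusted p = 6.93e-06). The largest falls in wild type were mt-Nd3 (-1.75) and mt-Co3 (-1.42). Under the antibody 3 rose, mt-Nd5 (0.59), mt-Nd4l (0.54) and mt-Atp6 (0.51), and without IgG replicate 1 the count was 11. These 13 genes took 16.9% to 26.7% of a library's reads in the knockout experiment and 20.6% to 30.1% in the antibody experiment. By group, the share was 21.9% ± 3.61 in wild-type libraries on adenine, 20.2% ± 1.02 in the libraries labelled knockout and 23.3% ± 2.56 in chow (SD). Their summed TPM was 348775 ± 45668, 327966 ± 14978 and 343666 ± 23994 in the same order. The ranges of these groups overlapped on both scales, so the fall against chow was seen in CPM after TMM scaling and not there.

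Other mitochondrial lists are given by their counts, which under the antibody stand beside the 47.2% of genes of at least 20 CPM called higher. Of 17 citric acid cycle genes, 17 fell on adenine in wild type (median log2 change -1.59), 16 rose with the label (0.45) and 17 rose under the antibody (0.82). Suclg1, a subunit of succinyl-CoA synthetase, which makes the substrate of complex II, averaged 98.0 ± 24.3 CPM in the libraries labelled knockout and 30.2 ± 1.80 CPM in wild-type libraries on adenine (1.70, edgeR adjusted p = 2.59e-08). The log2 change of Suclg1 was -3.65 on adenine in wild type and 1.63 under the antibody. Of 20 carriers and coenzyme Q genes, 19 fell and 1 rose on adenine in wild type, 13 rose and 1 fell with the label, and 14 rose under the antibody. Those that rose under the antibody included Etfdh (1.37) and Sqor (1.25), which feed electrons from fatty acids and from sulfide into coenzyme Q. Of 19 outer membrane and import genes, 19 fell, 18 rose and 10 rose in the same 3 comparisons, with 1 falling under the antibody. Slc25a5, an ADP/ATP exchanger of the inner membrane, showed 1.63 with the label, -3.65 on adenine in wild type and 1.63 under the antibody. Ucp2, an uncoupling protein, went the other way, with 1.73 on adenine in wild type and -0.86 under the antibody.

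Regulators of mitochondrial biogenesis were called in both directions. The single genes of this list other than Nrf1, Esrrb, Esrrg and Pprc1 were named after their values were seen. With the label, where 25.1% of all genes were called higher and 21.3% lower, 4 of 20 rose (Esrra 0.25, Tfam 0.28, Polrmt 0.14 and Perm1 1.58) and 3 fell (Nrf1 -0.34, Pprc1 -0.20 and Gabpb1 -0.22), shares that are not above those of all genes. On adenine in wild type 12 fell and 6 rose, where 40.9% of all genes were called lower and 44.0% higher (56.8% lower among genes of at least 20 CPM). Esrrb, an estrogen-related receptor, was at -1.98 and the coactivator Pprc1 at 1.499. Under the antibody 10 rose and 2 fell, and those that rose included Esrrb (0.67) and Esrrg (0.66). Of genes of at least 20 CPM, 47.2% were called higher and 17.3% lower there, so the count is near that share and is no result about the regulators.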

How the data were processed

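Kidney RNA of 24 libraries was measured by bulk RNA sequencing from 400 ng of total RNA with a stranded kit, per the labels' protocols. The authors deposited, per the file headers, estimated read counts (Salmon's NumReads), TPM and effective length for each transcript and library. The submitters' processing notes name FastQC, Salmon, DESeq2, DESeq and the build GRCm39, with no versions. Deposited expected counts and TPM were summed over the transcripts of each gene, with transcripts named from GENCODE M21. Of 116755 transcript IDs 115685 matched, and the other 1070 held 0.44% to 0.53% of reads and stayed out of the tests. Gene sums were rounded to whole numbers. edgeR 4.0.16 in R 4.3.3 (filterByExpr, TMM, quasi-likelihood F test, two-sided, Benjamini-Hochberg over all genes tested) was fitted to the 16 libraries of the knockout experiment and, apart, to the 8 of the antibody experiment, and was tested on simulated data. Standard errors were derived from the F statistic, and per-library log2 levels used a prior count of 2.

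The members and all gene lists were chosen with earlier results of these data known. Genes named with values were, in each comparison and complex, the 2 subunits with the largest and the 2 with the smallest log2 change at a mean of at least 5 CPM, members called against the majority, tissue isoform pairs, the succinate dehydrogenase subunits, the 10 members with the lowest p under the antibody, and the 2 largest changes of each other list. Others were named after their values were seen. Alternatives were RLE and upper-quartile scaling, no count filter, DESeq2 1.42.0, limma voom 3.58.1, the mitochondrial genome left out of library sizes, an effective length offset, a length trend removed (lowess span 0.3), the replicate number as a block, subunits alone, each library left out in turn and, chosen after seeing the data, reads on protein-coding transcripts alone. Replicate libraries differed by 4.94 to 182.5 times the sampling variance of their counts, so the error given is the spread between libraries. Promoter sequences are RefSeq's, on GRCm38.p6. The values of 1 member are not reported here.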

Additional observations from a re-analysis of the deposited data

Results flagged for a closer look

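In 14 of 285 groups examined, 1 library lay farther from the nearest other than Dixon's 95% criterion allows, which chance gives in about 1 of 20 groups. Each was a gene, the median level of a complex or set, or the members' share of reads, in a group of 4 or 6 libraries. Among well expressed members, Uqcrq was low in antibody replicate 3 (73.7 CPM), Atp5e was low in antibody replicate 1 (61.7 CPM), Cox7a2 and Atp5g3 were low in wild-type adenine replicate 5 (58.9 and 216 CPM), and Atp5b was high in wild-type adenine replicate 2 (343 CPM). Among low tissue isoforms, Cox6a2 was high in chow replicate 3 (4.50 CPM), Cox7a1 in IgG replicate 1 (3.83 CPM) and Cox4i2 in antibody replicate 4 (0.336 CPM). Isoforms near 0 had single high libraries, with Cox7b2 at 0.0720 CPM in wild-type adenine replicate 5 and 0.0191 CPM in IgG replicate 4, and Cox8b at 0.0232 CPM in antibody replicate 2 and 0.0382 CPM in IgG replicate 4. Enpp1 was high in wild-type adenine replicate 5 (24.9 CPM) and low in chow replicate 4 (49.9 CPM).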

How the results depend on the processing

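Over the alternatives, 1250 summary values (counts of members called and medians) stayed close to the value reported. Another 72 moved further, and 1 moved further with a changed sign. A median was taken as close when it lay within the SD between libraries, whatever its sign. For wild type on adenine against chow, upper-quartile scaling gave medians of -1.72 (all members) and -1.57, -2.22, -2.03, -1.73 and -1.88 (complexes I to V). With the length trend removed these were -1.63 (all), -1.51 (I), -2.15 (III), -1.60 (IV) and -1.83 (V). Protein-coding transcripts alone gave -1.90 (I), -2.11 (III) and -2.01 (V), the effective length offset -2.29 (II), and subunits alone -2.04 (all). For libraries labelled knockout against chow, upper-quartile scaling gave -1.26 (all), -1.16 (I), -1.35 (III), -1.26 (IV), -1.29 (V) and -0.66 (mtDNA-encoded), and removing the length trend -1.18 (all), -1.12 (I), -1.13 (IV) and -1.21 (V). Leaving out single libraries gave -0.87 to -0.69 for the mtDNA-encoded. The mtDNA-encoded subunits have no value with the mitochondrial genome left out. The cause of these shifts was not tested.

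For the antibody against IgG, upper-quartile scaling gave 24 members higher and 7 lower with medians of 0.049 (all), 0.058 (I, 12 higher), 0.60 (II), 0.049 (III), -0.045 (IV, a changed sign, 0 higher) and 0.060 (V). With the length trend removed, 73 members were higher (median 0.37), with 34 of complex I, 8 of III (median 0.43), 11 of IV (0.27), 16 of V (0.40) and 6 mtDNA-encoded. Of all 16410 genes, 5067 were higher and 4184 lower under that setting. Members lower numbered 1 with the effective length offset and 1 among subunits alone, in both cases in complex IV (1 and 1). Complex IV had 4 members higher by DESeq2, 4 with the effective length offset, 1 among subunits alone and 0 on protein-coding transcripts alone, and DESeq2 called 5 mtDNA-encoded subunits higher. Leaving out single libraries gave 26 to 58 members higher and 1 to 2 lower, with 13 to 29 higher in complex I, 3 to 7 in III, 0 to 7 in IV (1 to 2 lower), 6 to 11 in V and 2 to 11 mtDNA-encoded. The lowest count of all members came without IgG replicate 4 and the highest without IgG replicate 1. The cause was not tested.

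Replicate numbers did not pair the samples: correlations of deviations between same-numbered libraries were -0.14 to 0.065 in the knockout experiment and -0.081 to -0.0098 in the antibody experiment, and 1 of 6 knockout numbers and 0 of 4 antibody numbers correlated best with its own. With the replicate number as a block, 85 members rose with the label, 90 fell in wild type and 89 in libraries labelled knockout against chow, 28 rose and 2 fell under the antibody, and 0 of complex IV rose there.

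Single genes changed sign in 45 values. With the label, Enpp1 was -0.016 under upper-quartile scaling. Against chow, Ndufa4l2 in libraries labelled knockout was 0.046 (upper quartile), 0.065 (effective length offset) and 0.19 (length trend removed). Under the antibody, upper-quartile scaling gave Ndufa1 -0.10, Uqcrq -0.15, Uqcr10 -0.033, Cox8a -0.097, Atp5j2 -0.087 and Cox7b -0.0018. Protein-coding transcripts alone gave Ndufa1 -0.019, Uqcrq -0.11, Uqcr10 -0.025 and Cox8a -0.013, and leaving out the mitochondrial genome gave Uqcrq -0.000779. The length trend removed gave Ndufb7 0.12, Cox6c 0.17, Atp5mpl 0.24, Cox7a1 0.27, Enpp1 0.050 and Atpif1 0.080. Cox7a1 was 0.011 (RLE), 0.011 (DESeq2), 0.0057 (limma voom) and 0.010 (effective length offset), and Enpp1 0.015, 0.021 and 0.22 (RLE, DESeq2, effective length offset). Leaving out single libraries gave -0.074 to 0.048 for Atp5mpl, -0.097 to 0.053 for Cox6c, -0.099 to 0.17 for Cox7a1, -0.67 to 0.30 for Enpp1, -0.00095 to 0.16 for Ndufa1, -0.084 to 0.061 for Ndufb7 and -0.063 to 0.14 for Uqcrq. None of these genes was called in the comparison named as reported, and 1 was under the alternative (Atp5mpl with the length trend removed, edgeR adjusted p = 0.0151). Calls were lost in 5 values with the label, 5 in libraries labelled knockout against chow, 1 in wild type against chow and 21 under the antibody (6 genes), and gained in 7 values with the label and 21 under the antibody (11 genes).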

Other observations

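Glycolysis and hypoxia-responsive genes were described beside the respiratory chain, from lists chosen with earlier results known. Of 19 glycolysis genes, 13 rose and 2 fell in libraries labelled knockout against wild type, 5 rose and 13 fell in wild type on adenine against chow, and 12 rose and 3 fell under the antibody against IgG. Hk2, a hexokinase, was higher on adenine, with a log2 change of 3.92 in wild type (edgeR adjusted p = 9.11e-14), and lower under the antibody (-1.22, edgeR adjusted p = 0.000733). Aldoc, an aldolase, fell by 2.68 in wild type on adenine and rose by 0.88 with the label, and Tpi1, triose phosphate isomerase, rose by 1.25 under the antibody. Of 15 hypoxia-responsive genes, 8 rose with the label, 10 fell and 2 rose in wild type on adenine, and 8 rose and 1 fell under the antibody. Of genes of at least 20 CPM, 33.7% were called higher with the label, 56.8% lower in wild type on adenine and 47.2% higher under the antibody. The hypoxia counts on adenine and under the antibody are not far from these shares and are no result about the list. Bnip3, a mitophagy receptor, was at 0.55 with the label, -1.79 in wild type on adenine and 0.78 under the antibody.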
